A study of Mus musculus with 6 samples.

Results

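The genes described here encode the enzymes that build cholesterol and the proteins that sense, move, store and export sterols in mouse CD4+ T cells. The list held 34 genes, named by function from knowledge of the pathway, and 30 of them were measured among 22180 genes on the array. A gene was taken as measured where a probe set carried its symbol alone. Acat2, Soat1 and Nr1h2 were not analysed here for want of such a probe set, and that of Idi1 also carried the symbol of the pseudogene Gm13502. RNA came from spleen CD4+ T cells of wild-type female C57BL/6 mice about 8 weeks old, all stimulated for 24 h with antibodies to CD3 and CD28 at 10 µg/mL each. The icilin group (3 arrays) then received 100 µM icilin in dimethyl sulfoxide for 24 h, and the vehicle group (3 arrays) received the solvent alone for the same time. Both groups were made from the same 3 mice. Icilin is a synthetic cooling compound best known as an agonist of the ion channel TRPM8, and the comparison asked which genes respond to it in activated T cells.

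Cells make cholesterol from acetyl-CoA through mevalonate, prenyl diphosphates, squalene and lanosterol. The genes of this route are switched on by SREBP2, a transcription factor made as a membrane protein of the endoplasmic reticulum. Its escort SCAP carries it to the Golgi for cleavage when sterols are scarce, and INSIG proteins hold the pair back when sterols are plentiful. Excess sterol, sensed as oxysterols by the liver X receptors (LXR), turns on genes for export. T cells that enter division are known to raise sterol synthesis and to restrain LXR signalling.

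Over all genes, 1170 passed the false discovery limit used here, an adjusted p under 0.1 by limma, and 311 of these also reached 1.5-fold. Levels are log2 values of the RMA method, array medians lay between 4.24 and 4.30, and arrays of the same group correlated across genes at r = 0.996 against 0.994 between groups. The 6 measured T cell markers averaged 10.55 to 10.62 in icilin arrays and 10.47 to 10.56 in vehicle arrays, with Cd4 at 11.06 ± 0.04 in icilin and 11.04 ± 0.03 in vehicle arrays (SD, n = 3 each). The 6 macrophage and monocyte markers averaged 3.67 to 3.82 in icilin arrays and 3.72 to 3.78 in vehicle arrays, and 5 of them lay below the median gene (4.57). The 4 measured B cell markers averaged 5.14 to 5.20 in icilin arrays and 4.79 to 4.94 in vehicle arrays. Of these 4, limma called 1 higher (Ms4a1, 1.01 ± 0.10). Pax5 was also higher in all icilin arrays (0.21 ± 0.09, adjusted p = 0.283), while Cd79a and Cd79b overlapped between groups. In the T cell list limma called 1 of 6 genes higher (Cd28). It called 0 of 2 CD8 T cell, 2 natural killer, 3 dendritic and 1 platelet gene. At an unadjusted p under 0.05 these last 4 lists held 1 higher and 2 lower genes, and SAM called 2 lower (Klrb1c and Pf4). In such bulk samples, a smaller share of cells that express a gene and less RNA per cell cannot be told apart. The precision is set by the number of arrays, and a standard error of 0.06 to 0.11 stood behind each log2 fold change of a member.

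The promoters of several members are shown first, because SREBP2 target promoters classically pair a sterol regulatory element with sites for NF-Y and Sp1. Sequences are those of RefSeq (GRCm38.p6), the 250 bases before the annotated start, 5′ to 3′ on the strand of the gene. Hmgcs1 (chr13:119690101-119690350, plus strand), Hsd17b7 (chr1:169969206-169969455, minus strand) and Sc5d (chr9:42264301-42264550, minus strand) are the 3 genes that rose and had a promoter in the table. Msmo1 (chr8:64733579-64733828, minus strand) and Srebf2 (chr15:82147019-82147268, plus strand) did not pass the test and are shown because, like Hmgcs1, they hold a match to the core of the sterol regulatory element. Capitals mark that core, TCACNCCA, and the NF-Y box, CCAAT, which reads ATTGG where it lies on the other strand.
Hmgcs1: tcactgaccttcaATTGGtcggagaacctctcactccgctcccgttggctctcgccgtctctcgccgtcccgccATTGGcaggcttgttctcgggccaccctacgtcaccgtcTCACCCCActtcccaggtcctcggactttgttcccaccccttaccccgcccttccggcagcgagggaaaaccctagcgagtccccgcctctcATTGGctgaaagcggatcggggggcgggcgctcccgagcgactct
Hsd17b7: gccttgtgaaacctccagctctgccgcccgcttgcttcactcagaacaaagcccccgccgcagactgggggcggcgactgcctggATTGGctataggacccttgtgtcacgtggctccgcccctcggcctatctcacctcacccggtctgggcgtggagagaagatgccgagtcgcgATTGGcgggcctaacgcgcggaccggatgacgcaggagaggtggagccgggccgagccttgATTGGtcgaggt
Sc5d: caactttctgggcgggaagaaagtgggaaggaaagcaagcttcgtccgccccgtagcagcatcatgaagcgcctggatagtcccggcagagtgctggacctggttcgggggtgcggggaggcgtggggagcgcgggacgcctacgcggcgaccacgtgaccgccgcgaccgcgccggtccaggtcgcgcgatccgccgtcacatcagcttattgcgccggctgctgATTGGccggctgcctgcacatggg
Msmo1: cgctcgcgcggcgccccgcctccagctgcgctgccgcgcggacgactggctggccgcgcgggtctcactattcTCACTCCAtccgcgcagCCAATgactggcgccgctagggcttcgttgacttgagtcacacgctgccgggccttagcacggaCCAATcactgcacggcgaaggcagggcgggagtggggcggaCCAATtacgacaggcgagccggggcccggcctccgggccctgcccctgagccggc
Srebf2: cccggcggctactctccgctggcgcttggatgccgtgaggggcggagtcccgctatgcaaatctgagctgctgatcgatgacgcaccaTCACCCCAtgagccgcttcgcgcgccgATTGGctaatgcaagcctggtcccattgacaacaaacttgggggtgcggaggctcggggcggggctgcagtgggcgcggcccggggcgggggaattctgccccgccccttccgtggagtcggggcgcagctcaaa

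The NF-Y box was common in front of these genes. Of 27 members with a promoter in the table, 22 (81.5%) held CCAAT on either strand, against 37.5% of all 27025 genes. Among synthesis enzymes the count was 15 of 16, Acat2 being the one without a match. The Sp1 box, GGGCGG on either strand, was found for 22 members (81.5%), against 35.4% of all genes. For both boxes, all genes include dim ones, whereas 28 of the 30 measured members lay above the median gene. Shares among brighter genes were not counted. Exact matches to the element core were found in these windows for 3 members (11.1%), against 4.2% of all genes. Other forms of the element were not searched for, so their absence is not shown. In Hmgcs1 the match to the core began 137 bases before the start, in Msmo1 177 and in Srebf2 162. Genes with several annotated starts were counted as holding a motif if any of their windows did, 0 matches of different motifs overlapped in the members' windows, and a match describes letters only.

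**Figure D1:**
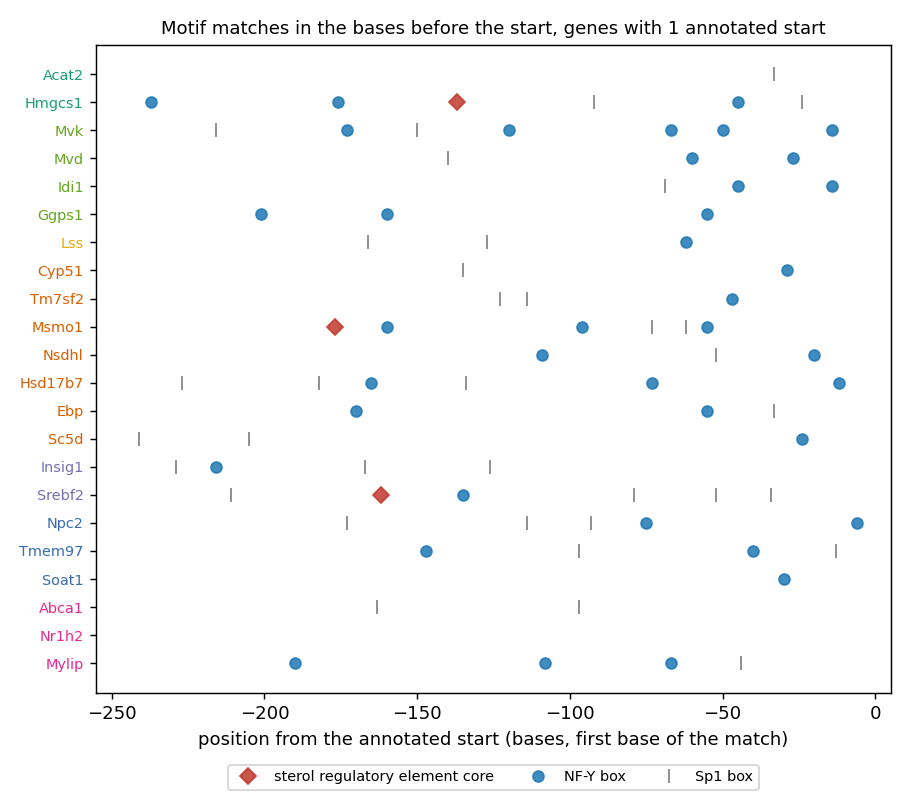
Motif matches in the promoters of the members with 1 annotated start. The horizontal axis is the distance in bases from the start and each line is a gene, with diamonds for the core of the sterol regulatory element, circles for the NF-Y box and ticks for the Sp1 box. Circles appear on every line of a measured synthesis enzyme shown, while diamonds appear on those of Hmgcs1, Msmo1 and Srebf2.

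Small rises were measured along the synthesis route, and 4 of them passed the test. Of the 30 measured members, 4 rose at an adjusted p under 0.1 (13.3%, against 2.27% of all genes) and 0 fell (3.0% of all genes did). The 4 were Hsd17b7, Sqle, Sc5d and Hmgcs1, all synthesis enzymes, with rises of 1.19-fold to 1.31-fold. None of the members was both past the adjusted p and past 1.5-fold (311 of all genes were, 1.4%). At an unadjusted p under 0.05, limma placed 12 members higher (9.09% of all genes and 13.7% of those brighter than the median gene). It placed 0 lower, against 1785 of all 22180 genes. Significance analysis of microarrays (SAM), the study's own method, also called 0 members lower, against 659 of all genes. Members were mostly well expressed, 28 of 30 lying above the median gene, and in that brighter part of the array 3.89% of 11090 genes passed higher.

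The count of 4 depends on how the spread is estimated and on every array. A fit that lets the spread follow brightness, with robust variances, called 13 members higher (6.49% of all genes), and the plain fit run only on genes brighter than the median gene called the same 13 (12.8% of the genes it tested). They were the 4 above with Mvd, Fdps, Ggps1, Fdft1, Cyp51, Msmo1, Nsdhl, Insig1 and Mylip. SAM called 2, Sqle and Hsd17b7 (2.06% of all genes), and centring the arrays on their medians left 3, without Hmgcs1 (2.13%). On 5 arrays, 1 member (Hsd17b7) passed if icilin replicate 1, icilin replicate 3 or vehicle replicate 2 was missing, and 0 passed if icilin replicate 2 was missing. Without vehicle replicate 3, 2 passed, Sqle and Hsd17b7. Without vehicle replicate 1, 2 also passed, Hsd17b7 and Mylip, the latter not among the 4. In these fits 0.879% to 1.56% of all genes passed higher. With the replicate number as a block, 0 passed (0.794% of all genes).

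The direction was shared more widely than the calls. In 18 of the 30 members all icilin arrays lay above all vehicle arrays, a pattern seen in 13.6% of all genes and in 21.6% of the brighter ones. For the synthesis enzymes it was 14 of 18. Here and below, the 18 include Acat1, a mitochondrial thiolase that does not serve the cytosolic route. The margin could be narrow, as in Mvk, with 7.04 in the lowest icilin and 7.03 in the highest vehicle array. In Dhcr7 these values were 9.47 and 9.45. The log2 fold changes of the synthesis enzymes had a median of 0.16 (1.12-fold), with 17 of 18 above 0. The median over all genes was 0.01 with 53.0% above 0. The 12 other members, which sense, move or export sterols, had a median of 0.04 with 7 above 0 and 5 below. Each array showed the same picture. With every enzyme set against its own mean over the 6 arrays, the median enzyme stood 0.07 to 0.10 above that mean on each icilin array and 0.10 below it on each vehicle array. These genes were listed with earlier results of the same arrays known, so counts and medians describe the list and do not test it.

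**Figure D2:**
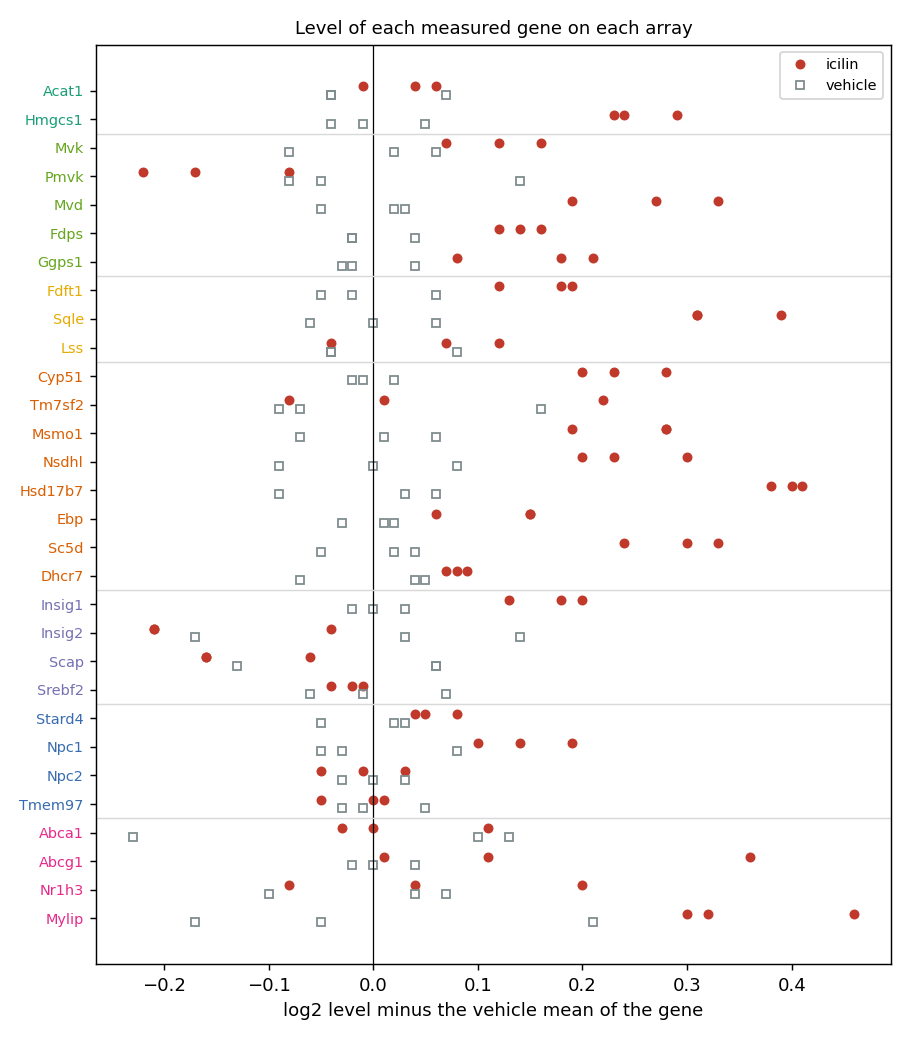
Level of each of the 30 measured genes on each array, as the log2 difference from the gene's own vehicle mean. Filled red circles are the 3 icilin arrays and open grey squares the 3 vehicle arrays, with gene names coloured by role in pathway order. Circles and squares separate in 14 of the 18 synthesis enzymes at the top and in 4 of the 12 genes below them.

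**Figure D3:**
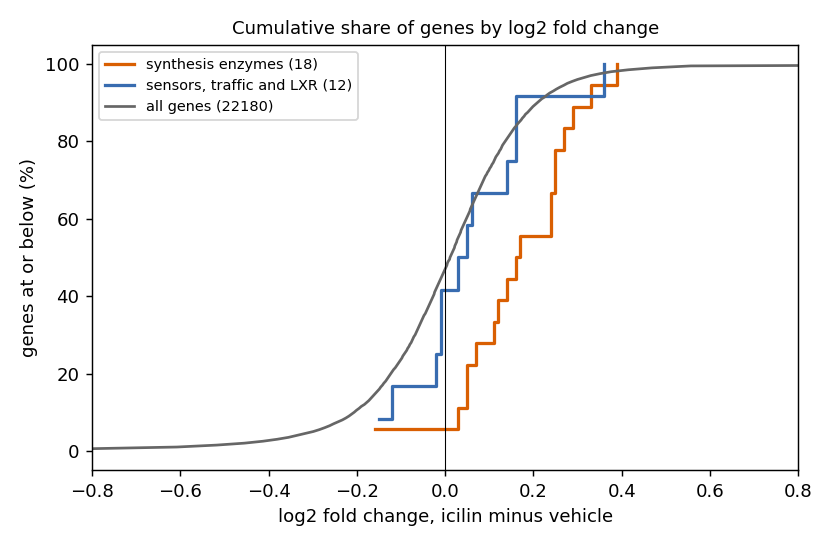
Cumulative share of genes (vertical axis, percent) at or below a given log2 fold change, icilin minus vehicle (horizontal axis). The orange line is the 18 synthesis enzymes, the blue line the 12 genes for sensing, traffic and LXR, and the grey line all 22180 genes, of which those beyond 0.8 in size lie outside the axis. The medians are 0.16 for the orange, 0.04 for the blue and 0.01 for the grey line.

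The route opens with the joining of acetyl-CoA units. Acat1 encodes a thiolase of mitochondria, which serves ketone body and amino acid metabolism and not the cytosolic route. Its level was 10.30, 10.23 and 10.28 in icilin arrays and 10.31, 10.20 and 10.20 in vehicle arrays. The groups overlapped, with a log2 fold change of 0.03 (95% confidence interval -0.12 to 0.19). Hmgcs1, the cytosolic synthase that makes HMG-CoA from acetoacetyl-CoA, stood at 10.95, 10.96 and 11.01 in icilin arrays and at 10.71, 10.77 and 10.68 in vehicle arrays. The lowest icilin array was above the highest vehicle array, and Hmgcs1 rose by 0.25 ± 0.06 on the log2 scale (SE; 1.19-fold, adjusted p = 0.0920). This was the weakest of the 4 calls. It was lost in 10 of the 14 alternative settings, with a log2 fold change of 0.23 to 0.28 throughout and adjusted p values from 0.000944 to 0.242.

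The mevalonate kinases and prenyl transferases come next. limma and SAM called 0 of the 5 measured members, with 2 higher at an unadjusted p under 0.05. Over all genes limma called 2.27% higher, and 9.09% were higher at that unadjusted p (13.7% of the brighter genes). In 4 of them the groups were separate with icilin higher, and the median log2 fold change was 0.14. Mvd, the decarboxylase that yields isopentenyl diphosphate, missed the limit narrowly. It had levels of 8.56, 8.50 and 8.42 in icilin arrays and 8.18, 8.26 and 8.25 in vehicle arrays. Every icilin value was higher, and the difference was 0.27 ± 0.07 (adjusted p = 0.104). Fdps, the farnesyl diphosphate synthase, read 10.23, 10.21 and 10.25 in icilin arrays and 10.07, 10.13 and 10.07 in vehicle arrays, a smaller but equally separate difference of 0.14 ± 0.06 (adjusted p = 0.292). Ggps1, which extends farnesyl to geranylgeranyl diphosphate for protein prenylation, differed by 0.16 ± 0.07 (adjusted p = 0.276). For the mevalonate kinase gene Mvk the difference was 0.11 ± 0.07 (adjusted p = 0.465).

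Pmvk, the phosphomevalonate kinase between Mvk and Mvd, pointed the other way. Its levels were 8.78, 8.73 and 8.87 in icilin arrays and 9.09, 8.90 and 8.87 in vehicle arrays, so that the groups met at 8.87. With a log2 fold change of -0.16 ± 0.08 (95% confidence interval -0.35 to 0.04, adjusted p = 0.395) it was the 1 synthesis enzyme below 0, and it stayed below 0 in all 14 alternatives (-0.20 to -0.09). Its promoter windows held 1 NF-Y box and no Sp1 box. The window of Ggps1, a gene with a positive difference, also held no Sp1 box. A link between motifs and direction was not tested.

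Squalene synthesis and cyclisation held the second largest of the 4 rises that passed. Sqle encodes squalene epoxidase, an oxygen-requiring and tightly sterol-regulated step. It stood at 9.46, 9.38 and 9.38 in icilin arrays and at 9.01, 9.07 and 9.13 in vehicle arrays. The groups were clearly apart, and Sqle rose by 0.33 ± 0.07 (1.26-fold, 95% confidence interval 0.18 to 0.49, adjusted p = 0.0444). Among the fits on 5 arrays the call remained only without vehicle replicate 3 (adjusted p = 0.0903), and leaving out any other array gave an adjusted p from 0.114 to 0.155 with a log2 fold change of 0.31 to 0.35. Fdft1, squalene synthase, read 10.46, 10.39 and 10.45 in icilin arrays against 10.33, 10.22 and 10.25 in vehicle arrays. The values did not overlap, at a difference of 0.17 ± 0.06 (adjusted p = 0.246). Lss, the cyclase that forms lanosterol, overlapped between groups with 9.48, 9.59 and 9.64 in icilin arrays and 9.48, 9.48 and 9.60 in vehicle arrays (0.05 ± 0.07, 95% confidence interval -0.13 to 0.22).

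From lanosterol to cholesterol, 2 of 8 enzymes rose (2.27% of all genes and 3.89% of the brighter ones did). All 8 differed in the positive direction, and the median log2 fold change was 0.24. The largest rise among all members was that of Hsd17b7, a ketosteroid reductase that works in removing the methyl groups of lanosterol. Its levels were 7.98, 8.00 and 8.01 in icilin arrays and 7.66, 7.51 and 7.63 in vehicle arrays. The icilin arrays lay close together and above every vehicle array, and the rise was 0.39 ± 0.07 (1.31-fold, 95% confidence interval 0.24 to 0.55, adjusted p = 0.0271). This call held in 12 of 14 alternatives and ended with the replicate number as a block (adjusted p = 0.110) and without icilin replicate 2 (adjusted p = 0.104). Sc5d, the sterol desaturase near the end of the route, had 9.96, 9.87 and 9.93 in icilin arrays and 9.58, 9.67 and 9.65 in vehicle arrays. It rose by 0.29 ± 0.06 (1.22-fold, adjusted p = 0.0680), a call that ended with any 1 array left out (0.26 to 0.31, adjusted p 0.143 to 0.202).

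Msmo1, Nsdhl and Cyp51 carry out the demethylation of lanosterol together with Hsd17b7, and their differences were alike. Msmo1, the methyl sterol oxidase, stood at 9.20, 9.29 and 9.29 in icilin arrays and 8.94, 9.02 and 9.07 in vehicle arrays (0.25 ± 0.07, adjusted p = 0.115). Nsdhl, the decarboxylating dehydrogenase encoded on the X chromosome, had 9.76, 9.73 and 9.83 in icilin arrays and 9.44, 9.61 and 9.53 in vehicle arrays (0.24 ± 0.07, adjusted p = 0.143). Cyp51, the lanosterol demethylase, had 10.20, 10.12 and 10.15 in icilin arrays and 9.94, 9.91 and 9.90 in vehicle arrays (0.24 ± 0.06, adjusted p = 0.103). In all 3 genes every icilin array was above every vehicle array, and none passed the limit. Ebp, a sterol isomerase also on the X chromosome, differed by 0.12 ± 0.06 (adjusted p = 0.388). Dhcr7, the reductase that makes cholesterol from its last precursor, had icilin values of 9.47 to 9.49 and vehicle values of 9.33 to 9.45 (0.07 ± 0.06, 95% confidence interval -0.08 to 0.22). Tm7sf2, which encodes a sterol reductase, overlapped between groups (0.05 ± 0.11), and its sign turned without icilin replicate 3.

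**Figure D4:**
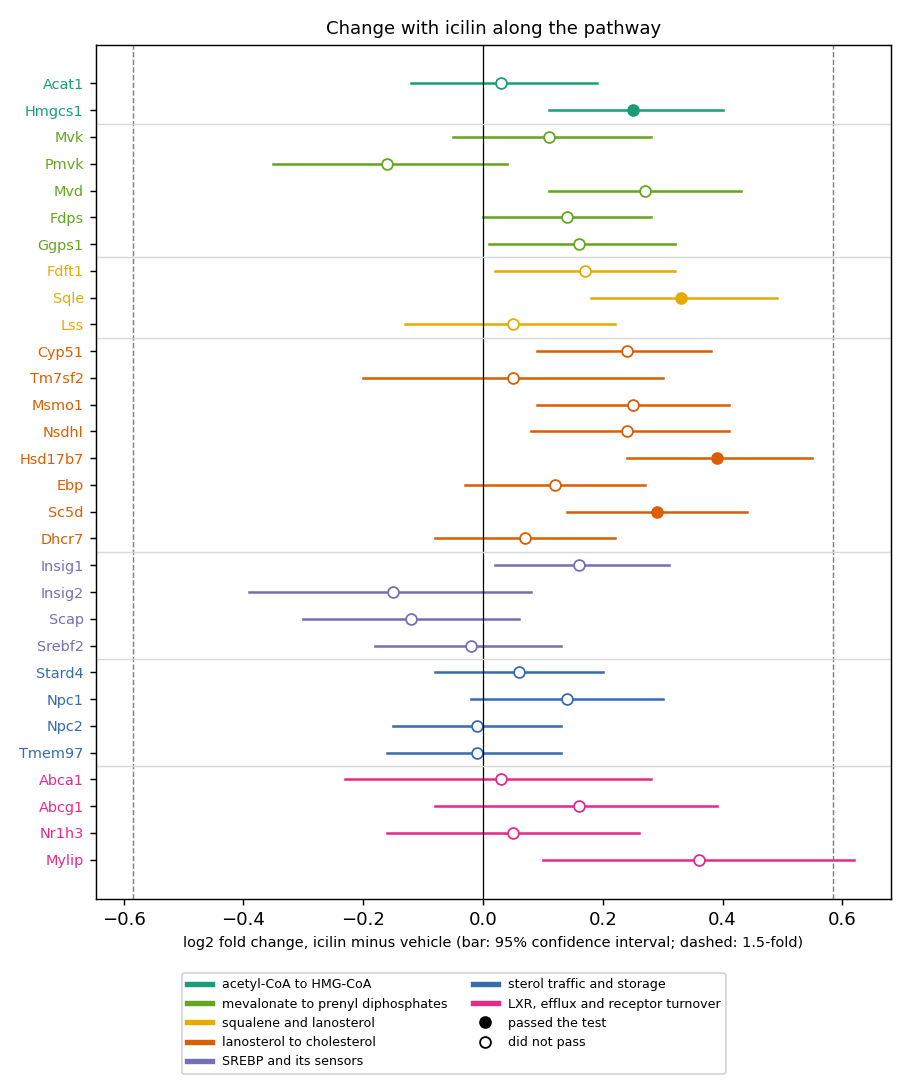
Log2 fold change (icilin minus vehicle, horizontal axis) of the 30 measured genes in pathway order, coloured by role. Bars are 95% confidence intervals from limma, filled circles passed an adjusted p under 0.1, open circles did not, and dashed lines mark 1.5-fold. The filled circles are Hmgcs1, Sqle, Hsd17b7 and Sc5d, between 0.25 and 0.39, and no circle reaches a dashed line.

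Of the 4 genes that control SREBP, limma and SAM called 0, with 1 (Insig1) higher at an unadjusted p under 0.05. At that unadjusted p 9.09% of all genes and 13.7% of the brighter ones were higher. Srebf2 itself, which encodes SREBP2, had levels of 9.99, 10.02 and 10.01 in icilin arrays and 9.97, 10.02 and 10.10 in vehicle arrays. The groups overlapped, with a difference of -0.02 ± 0.06 and a 95% confidence interval of -0.18 to 0.13. Insig1, whose protein retains SCAP and whose gene is a classical SREBP target, stood at 10.53, 10.48 and 10.55 in icilin arrays and at 10.38, 10.35 and 10.33 in vehicle arrays. Each icilin array was higher, by 0.16 ± 0.06 in the mean (adjusted p = 0.227). Its relative Insig2 had 7.00, 6.83 and 6.83 in icilin arrays and 7.18, 7.07 and 6.87 in vehicle arrays, an overlapping difference of -0.15 ± 0.10 (adjusted p = 0.498). The difference between the responses of Insig1 and Insig2 was not tested. Scap stood at -0.12 ± 0.08 (adjusted p = 0.487) on its brighter probe set and at 0.07 on a second, dimmer one.

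Of the 4 measured genes for sterol traffic, limma and SAM called 0, with 0 at an unadjusted p under 0.05. Over all 22180 genes, 2017 were higher and 1785 lower at that unadjusted p. Npc1, the late endosomal membrane protein that releases cholesterol from lysosomes, had 7.70, 7.66 and 7.75 in icilin arrays and 7.53, 7.51 and 7.64 in vehicle arrays. The arrays were separate by a narrow margin (0.14 ± 0.07, adjusted p = 0.342), and a second, dim probe set of Npc1 differed by 0.04. Npc2, its soluble partner in the lysosome, differed by -0.01 (95% confidence interval -0.15 to 0.13). Stard4, a sterol transfer protein of the cytosol, differed by 0.06 (-0.08 to 0.20). Tmem97, the sigma receptor that binds NPC1, differed by -0.01 (-0.16 to 0.13). For Npc2 and Tmem97 the sign turned without icilin replicate 2 and without vehicle replicate 1.

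In the 4 measured genes of the LXR arm limma and SAM called 0, with 1 (Mylip) higher at an unadjusted p under 0.05 (9.09% of all genes). Mylip, an LXR target whose ubiquitin ligase degrades lipoprotein receptors, had the largest difference, with 5.56, 5.54 and 5.70 in icilin arrays and 5.45, 5.19 and 5.07 in vehicle arrays. The groups did not overlap, at 0.36 ± 0.11 (95% confidence interval 0.10 to 0.62, adjusted p = 0.156). It passed without vehicle replicate 1, the highest vehicle array (0.47, adjusted p = 0.0736). The cholesterol exporter gene Abcg1 had 5.93, 5.83 and 6.18 in icilin arrays and 5.82, 5.80 and 5.86 in vehicle arrays. These overlapped, and the mean difference of 0.16 ± 0.10 was 0.05 without icilin replicate 3. Abca1, the other exporter, and Nr1h3, which encodes LXR alpha, averaged below the median gene over the 6 arrays. Abca1 differed by 0.03 ± 0.11 and Nr1h3 by 0.05 ± 0.09, and both changed sign when single arrays were left out. The 6 macrophage and monocyte markers, cells in which these genes are prominent, held 0 calls by limma and by SAM and had a median difference of 0.07. An unadjusted p under 0.05 was reached by 3 of them, 1 higher and 2 lower, against 2017 higher and 1785 lower of all 22180 genes. Their part in the values of the LXR arm was not tested.

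Other genes around the pathway, 46 named by function, were looked at in the same fit. Of the 42 measured, 2 rose (4.76%) and 2 fell. Over all genes 2.27% rose and 3.0% fell, and 3.89% of the brighter genes rose. At an unadjusted p under 0.05, 8 of the 42 were higher and 5 lower, against 2017 and 1785 of all 22180 genes. The median log2 fold change of the 42 was 0.02, and 37 of them lay above the median gene. Prenyl chains made by Fdps and Ggps1 feed ubiquinone, dolichol and protein prenylation, and in those branches limma and SAM called 0 of 12 genes. At an unadjusted p under 0.05 Coq2, of ubiquinone synthesis (0.28 ± 0.09), Dhdds, of dolichol synthesis (0.20 ± 0.07), and Rce1, a protease of prenylated proteins (0.21 ± 0.07), were higher and Rabggta, of Rab prenylation (-0.24 ± 0.08), was lower. Among 7 genes of SREBP cleavage and sterol-regulated degradation, the ubiquitin ligase gene Rnf139 rose, with 9.05, 9.07 and 9.16 in icilin arrays and 8.88, 8.67 and 8.71 in vehicle arrays (0.34 ± 0.08, adjusted p = 0.0810). On 5 arrays this call remained only without vehicle replicate 1 (0.40, adjusted p = 0.0680), and the other such fits gave an adjusted p of up to 0.229. It was also lost by SAM (adjusted p = 0.101) and with the replicate block (adjusted p = 0.187). Srebf1, the gene of the SREBP that mainly serves fatty acid synthesis, had 7.69, 7.76 and 7.82 in icilin arrays and 7.86, 7.97 and 8.02 in vehicle arrays. All icilin values were lower, at -0.20 ± 0.07 (adjusted p = 0.231). Erlin1, also among these 7 genes, was higher in all icilin arrays (0.26 ± 0.09, adjusted p = 0.209).

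Sterol transfer and uptake held the larger changes. Osbpl2, an oxysterol-binding protein relative that moves lipids between membranes, had 9.11, 9.11 and 9.13 in icilin arrays and 8.55, 8.59 and 8.56 in vehicle arrays. It rose by 0.55 ± 0.06 (1.46-fold, adjusted p = 0.00447), more than any member of the pathway list. Gramd1b, which carries cholesterol from the plasma membrane to the endoplasmic reticulum, had 8.52, 8.50 and 8.56 in icilin arrays and 8.81, 8.91 and 8.97 in vehicle arrays, and fell by 0.37 ± 0.07 on the log2 scale (adjusted p = 0.0340). The call of Gramd1b was lost when icilin replicate 1, icilin replicate 2, vehicle replicate 2 or vehicle replicate 3 was missing (adjusted p of up to 0.125) and with the replicate block (adjusted p = 0.113). The lipoprotein receptor gene Vldlr had 6.89, 6.74 and 6.93 in icilin arrays and 7.48, 7.36 and 7.40 in vehicle arrays, and fell by 0.56 ± 0.08 (adjusted p = 0.0128). The calls of Osbpl2 and Vldlr held with each array left out in turn, by SAM and with the block (adjusted p = 0.0478 and 0.0520). The other 11 genes of that list did not pass, though Osbp (0.18 ± 0.06) and Stard5 (0.32 ± 0.10) were higher at an unadjusted p under 0.05. Among 9 genes of oxysterols and LXR partners and targets limma and SAM called 0. LXR acts as a dimer with a retinoid X receptor. Of the genes for these receptors, Rxra was lower in all icilin arrays at -0.35 ± 0.09 (adjusted p = 0.103), while Rxrb overlapped between groups at -0.06 ± 0.08 (adjusted p = 0.744). Rxrg, below the median gene, differed by 0.03 ± 0.19 (adjusted p = 0.961). The LXR target Lpcat3, a phospholipid acyltransferase, stood at -0.16 ± 0.07 (adjusted p = 0.328). Smpdl3a, from the same list, stood at 0.17 ± 0.10 (adjusted p = 0.445). Both overlapped between groups.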

How the data were processed

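RNA of 6 cultures was measured on Affymetrix mouse whole-transcript arrays, each from 0.25 µg of RNA (integrity number 8 or more). The deposited log2 values were made by the authors with RMA (background correction, normalization, summary into probe sets), per the labels' protocols and the submitters' processing notes; they were used as deposited, and RMA would hide a change common to most genes. Of 41345 probe sets, 23521 carry 1 gene symbol, 1814 several and 16010 none in the platform annotation; the brightest single-symbol probe set over all arrays was kept per gene, leaving 22180 genes. The genome build of the arrays is not given in the sources used here.

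Icilin minus vehicle was fitted in R 4.3.3 by limma 3.58.1 (lmFit, eBayes, 4 residual and 3.07 prior degrees of freedom, two-sided), Benjamini-Hochberg adjusted over all genes. A gene was called at an adjusted p under 0.1, the study's false discovery limit, and counted again with its 1.5-fold limit. With 3 arrays a side, 0.1 is the smallest two-sided p that permuting a gene's values allows, so no such p is given. The labels do not tie replicate numbers to mice, and arrays were not paired.

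All 34 members are named by rule, in 7 role groups, with 46 other pathway genes, of which those that passed and a few more chosen after their values were seen are named, and marker lists for 7 cell types. Members and lists were chosen with earlier results of these data known, and the promoter motifs and the promoters shown after the members' values were seen. Alternatives were the replicate block, an intensity trend with robust variances, median centring, quantile normalization, brighter genes only, the mean of probe sets, each array left out, SAM (20 arrangements, rewritten here), stricter limits and, added after seeing the data, a fit over every probe set. limma and SAM were tested on simulated data. Tables used pandas 2.3.3 and numpy 2.4.6 under Python 3.11.15, and figures matplotlib 3.10.9.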

Additional observations from a re-analysis of the deposited data

Results flagged for a closer look

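Idi1, the isomerase that prepares isopentenyl diphosphate for chain building, lies on a probe set whose annotation also names the pseudogene Gm13502, so no comparison used it. It drew attention because its signal was higher in every icilin array than in any vehicle array. The probe set read 9.30, 9.36 and 9.27 in icilin arrays and 9.14, 9.06 and 8.92 in vehicle arrays. In a limma fit over all 41345 probe sets the difference was 0.27 ± 0.08 (SE), with an unadjusted p of 0.0160 and an adjusted p of 0.282, so it did not pass. Signals of the gene and the pseudogene cannot be told apart on this probe set.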

How the results depend on the processing

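The number of members that rose was 4, and it was 0 with the replicate number as a block, 2 by SAM, 3 with centred arrays, 2 at an adjusted p under 0.05, 0 with the 1.5-fold limit, 1 in the fit over every probe set, and 13 both with an intensity trend and robust variances and among brighter genes only. Leaving out 1 array gave 0 to 2. Over all genes, 1170 calls became 552 with the block, 2621 with the trend, 2563 among brighter genes, 649 over every probe set, 311 with the fold limit, 734 at an adjusted p under 0.05 and 571 to 890 with 1 array left out. The block pairs arrays by number only. Deviations of same-numbered arrays from their group means correlated at -0.022 to -0.005, and 0 of 6 arrays correlated best with their own number. In no setting was a member called lower. The median of the synthesis enzymes was 0.15 after quantile normalization. Of 418 recomputed member values, 361 kept direction and call, 28 lost and 19 gained the call, and 10 changed sign. These were Npc2 with centred arrays (0.00) and, over the fits without 1 array, Npc2 (-0.03 to 0.01), Tmem97 (-0.03 to 0.01), Srebf2 (-0.05 to 0.01), Tm7sf2 (-0.04 to 0.13), Abca1 (-0.09 to 0.09) and Nr1h3 (-0.02 to 0.11). The causes were not tested.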

Other observations

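Rabggtb, the catalytic subunit of Rab prenylation, had 1 array far from the rest. It read 8.92, 8.71 and 8.71 in icilin arrays and 7.72, 8.92 and 9.00 in vehicle arrays, so that vehicle replicate 1 gave it the largest standard error of the pathway genes (0.32). Among the T cell markers, the costimulatory receptor gene Cd28, bound by one of the stimulating antibodies, rose, with 9.43, 9.38 and 9.48 in icilin arrays and 9.18, 9.03 and 9.06 in vehicle arrays (0.34 ± 0.07, limma adjusted p = 0.0529). That call remained on 5 arrays only without vehicle replicate 1, and the highest adjusted p of those fits was 0.172. It held by SAM (adjusted p = 0.0767) and was lost with the replicate block (adjusted p = 0.144).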
